A study of Mus musculus with 9 samples.

Results

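The nuclear genes for respiratory complexes II, III and IV, for cytochrome c and for ATP synthase were examined in retinal ganglion cells (RGCs), the neurons whose axons form the optic nerve. Genes were taken by symbol, namely Sdha to Sdhd for complex II, the Uqcr genes and Cyc1 for complex III, Cycs for cytochrome c, Cox4 to Cox8 for complex IV and the Atp5 genes for ATP synthase. This gave 49 of the 23997 gene symbols in the data, of which 4 belong to complex II, 9 to complex III, 1 is cytochrome c, 18 belong to complex IV and 17 carry an ATP synthase name. Atp5s and Atp5sl carry the name but are no core subunits of the enzyme, and Cox7a2l is a supercomplex factor related to a complex IV subunit.

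The RGCs came from C57BL/6J mice, a wild type strain, in which intraocular pressure (IOP) was raised by injecting microbeads into the eye. Injections were made at 6 weeks of age and cells were collected 2 weeks later, at 8 weeks. Control eyes received saline, and bead-injected eyes were sorted by their pressure increase into Mild IOP and Moderate IOP. Cells of all 3 groups were isolated in the presence of the transcription inhibitor actinomycin D by 4 immunopanning steps that ended on Thy1.2, and RNA of each group was pooled and split into 3 technical replicates. The comparisons below are therefore between 3 pools, and their errors cover the spread between replicates of a pool and not between mice. Poly(A) RNA was copied with the SMART-seq v4 kit, and values are FPKM, a fragment number corrected for transcript length and library size, divided further by a factor per library that ran from 0.983 to 1.06. The depth of the libraries, derived from the confidence intervals of the FPKM, ran from 4790000 to 8610000 fragments.

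Electrons from succinate enter the respiratory chain at complex II, pass through complex III to the mobile carrier cytochrome c, and are handed to oxygen by complex IV. Complexes III and IV pump protons across the inner mitochondrial membrane, and ATP synthase lets them flow back through a rotating ring of c subunits to drive ATP synthesis. Most subunits are encoded in the nucleus, including every gene examined here, and the unmyelinated part of the RGC axon is known for its dense mitochondria. The mitochondrially encoded subunits were not analysed here.

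In the Control libraries these genes were among the more abundant transcripts. Cox8a was the highest, with 1513 ± 47.3 FPKM (SD, n = 3), followed by Atp5b with 1325 ± 20.4, Uqcrb with 1131 ± 207 and Cox6a1 with 1121 ± 102. The SDs of Uqcrb and Cox6a1 overlapped, whereas Cox8a lay above Atp5b in each Control replicate. At the other end, Cox7b2 was listed at 0 in every Control replicate and Cox8c, a testis isoform, was listed at 0 in all 9 libraries. The median Control level of a gene was 182 FPKM in complex II, 670 in complex III, 454 in complex IV and 475 in ATP synthase, so complex II was the lowest of the complexes.

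**Figure D1:**
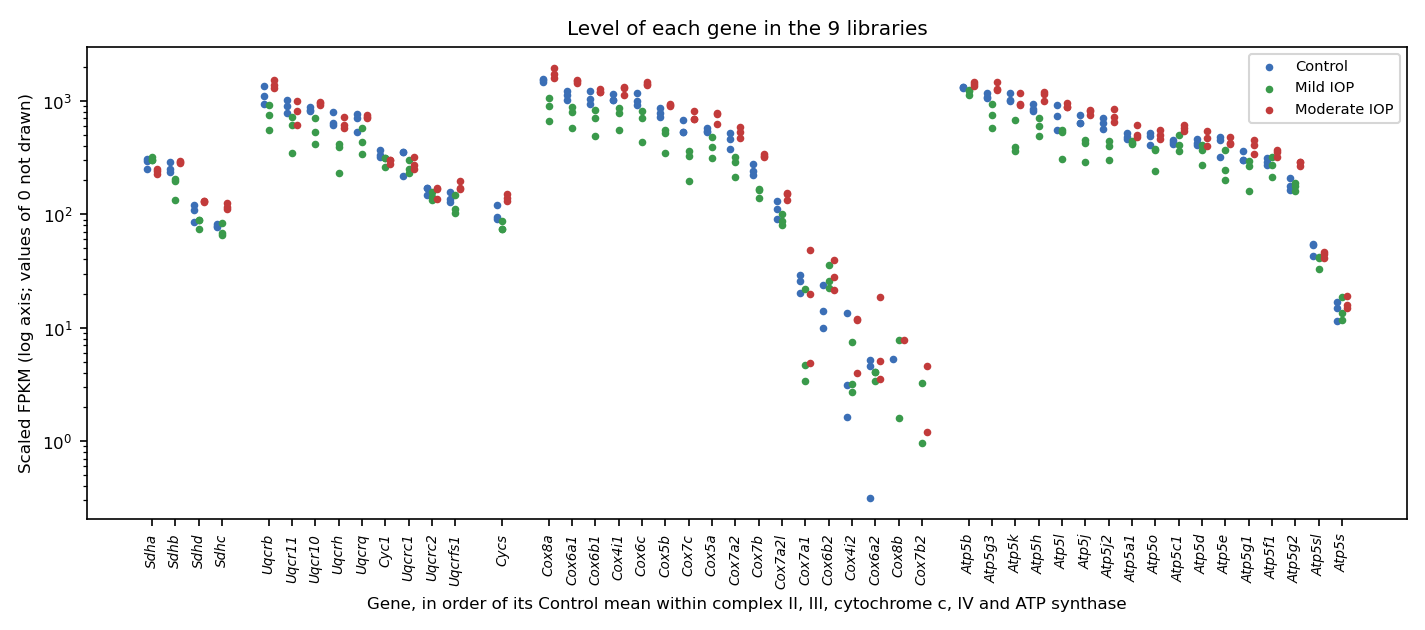
Level of each of the 48 tested genes in the 9 libraries, as scaled FPKM on a log axis, with 1 point per library colored by group and genes ordered by their Control mean within each complex. Most structural genes of complexes III and IV and of ATP synthase lie between 100 and 2000 FPKM with the Mild IOP points lowest, and the tissue isoforms of complex IV lie below 50.

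Most of the genes were higher in Moderate IOP than in Mild IOP. Log2 fold-changes are differences of mean log2(scaled FPKM + 1) and were tested for genes with a mean of at least 0.5 FPKM, which left out Cox8c. Of the 48 genes tested, 31 were higher and 1 was lower in Moderate IOP (limma, FDR below 0.1, Benjamini-Hochberg over 13043 genes). Over all genes tested, 7.03% were called higher and 3.12% lower in this comparison. The median log2 fold-change was 0.75 over these genes and −0.02 over all genes tested. The 3 replicates of Moderate IOP all lay above the 3 of Mild IOP for 34 of the 48 genes and below them for 1, where 14.5% and 13% of all genes tested did so.

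Each IOP group was also compared with Control, and as both comparisons share the Control libraries they are given side by side. In Mild IOP 0 genes were higher and 4 were lower than Control, namely Atp5k, Atp5j, Cox7b and Cox8a, beside 0.00767% higher and 0.391% lower of all genes tested. A further 25 genes had an unadjusted p below 0.05, which made 29 in all beside 10.2% of all genes tested, and the median log2 fold-change was −0.51 against 0.01 over all genes, or −0.34 without Mild IOP replicate 2. In Moderate IOP 2 genes were higher, Sdhc and Atp5g2, and 0 were lower, beside 0.951% higher and 0.889% lower of all genes tested. The median log2 fold-change there was 0.24 against 0.00 over all genes, and 13 genes had an unadjusted p below 0.05, beside 15.3% of all genes tested. Groups did not overlap for 29 genes in Mild IOP, each lower than Control, where 9.13% of all genes tested were lower and 7.94% higher, and for 20 higher (9.95%) and 2 lower genes (9.48%) in Moderate IOP. In a bulk sample, fewer cells of a type and less RNA per cell cannot be told apart.

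For 13 of the 48 genes (27.1%) the 9 libraries fell in full order, with each Mild IOP replicate below each Control replicate and each Control replicate below each Moderate IOP replicate. These were Uqcr10 of complex III, Cycs, 7 genes of complex IV (Cox5a, Cox5b, Cox6a1, Cox6c, Cox7b, Cox7c and Cox8a), and Atp5b, Atp5g3, Atp5h and Atp5j of ATP synthase. This order was seen in 1.32% of all genes tested and in 7.08% of those with a median transcript length under 1000 nt.

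**Figure D2:**
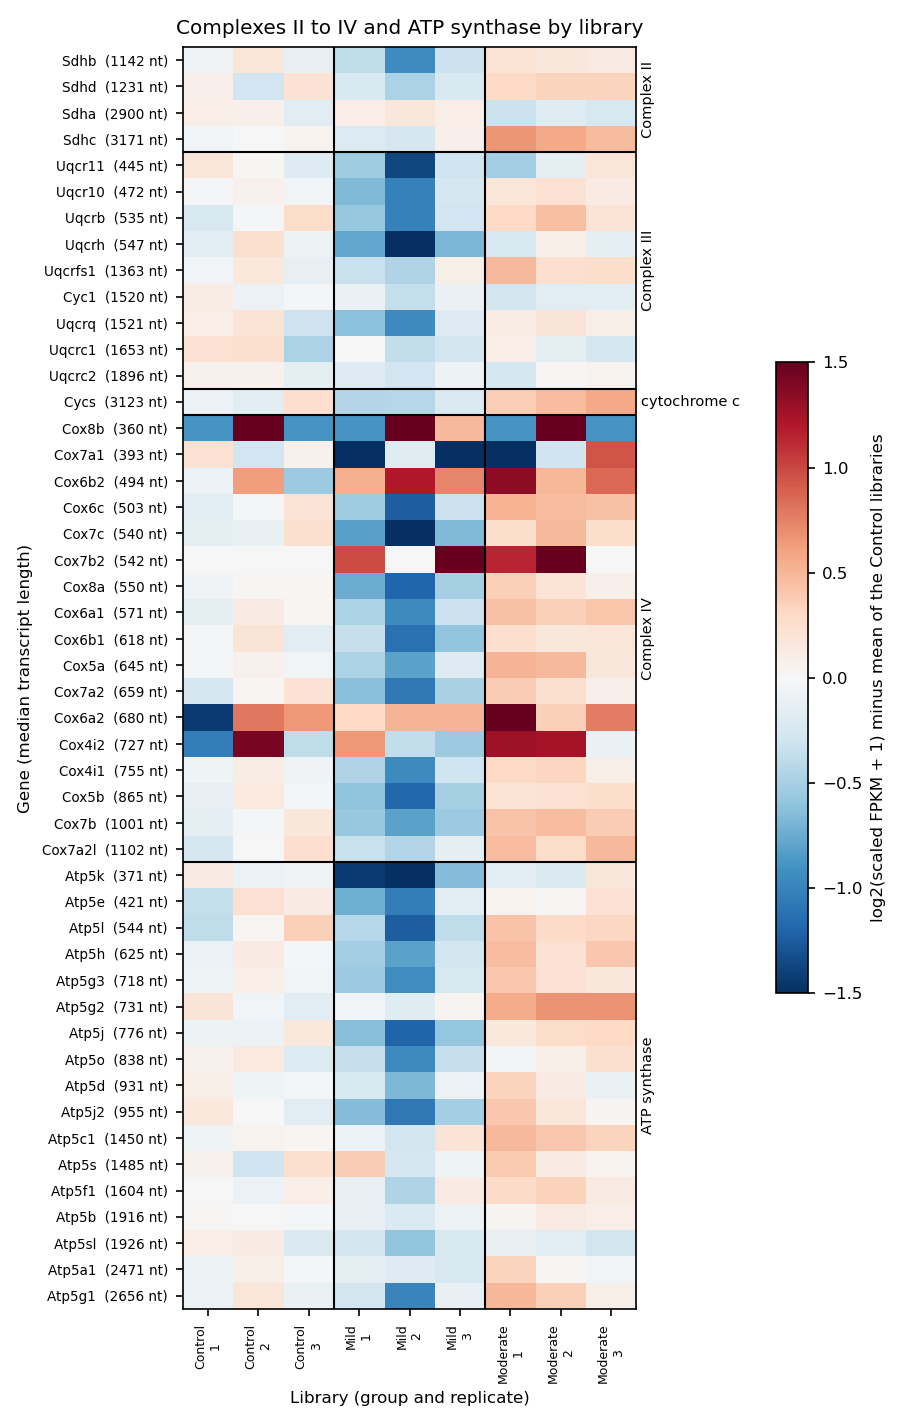
Difference of each of the 48 tested genes from its Control mean in the 9 libraries, on the log2(scaled FPKM + 1) scale, with rows grouped by complex and ordered by transcript length and colors cut at 1.5 in either direction. Mild IOP replicate 2 is the lowest library for 37 genes, Moderate IOP lies above Control for most rows, and Sdha is the row where Moderate IOP is lower than Mild IOP beyond the test's threshold.

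The libraries of Mild IOP did not lie equally low. The median deviation of the 48 genes from Control was −0.40, −0.80 and −0.24 on the log2 scale in Mild IOP replicates 1, 2 and 3, and 0.32, 0.23 and 0.17 in the Moderate IOP replicates. For all genes tested under 1000 nt the medians, in the same order of libraries, were close to these. They were −0.34, −0.67 and −0.21, then 0.26, 0.21 and 0.15. Over all genes tested the median lay between 0.0004 and 0.008 in the IOP libraries. Mild IOP replicate 2 was the lowest library for 37 of the 48 genes. In this library 1 transcript took 20.5% of the summed FPKM, against 1.87% to 3.59% in 7 other libraries and 9.14% in Moderate IOP replicate 3. Its scaling factor was 1.06, against 1.05 and 1.04 in Mild IOP replicates 1 and 3. Whether that transcript bears on the levels of the 48 genes was not tested. Without Mild IOP replicate 2, 24 genes were still called between Moderate IOP and Mild IOP, each of them among the 32, and 23 of the 32 were called whichever library was left out. In each of the 4 genes called lower in Mild IOP than in Control, all 3 Mild IOP replicates lay below all 3 Control replicates, but the calls changed with the libraries in the fit. Atp5j, Cox7b and Cox8a kept an FDR below 0.1 when Mild IOP replicate 3 was left out, when 19 genes were called in all, and lost it in each of the other 8 cases, with the FDR reaching 0.227, 0.222 and 0.278. Atp5k lost it without any one Control replicate, without Mild IOP replicate 1 or 2 or without Moderate IOP replicate 2, reaching 0.186.

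The promoters of these genes are shown because many of them moved together and because nuclear respiratory genes are known for binding sites of the activator NRF1. RefSeq promoters on GRCm38.p6, from 250 bases before to 50 bases after the start, were matched for 38 of the 49 genes, and Cox4i1, Cox4i2, Cox6a2, Cox6c, Cox8c, Cyc1, Uqcrb, Uqcrc2, Uqcrq, Sdhc and Atp5a1 were not matched. The NRF1 core CGCATGCG, searched on both strands and identical on each, was found in 8 of the 38 (21.1%) and in 2.07% of all 27025 genes with a promoter. A gene counted when any of its promoters held the motif. These 27025 genes were not limited to those tested here, so the shares do not compare genes of like expression. The 8 with the NRF1 core were Atp5g2, Atp5j, Atp5k, Atp5l, Cox6a1, Cycs, Uqcr11 and Uqcrc1. The sequences around the upstream matches follow, 5′ to 3′ on the strand of the gene, with the NRF1 core in capitals.
Cycs, chr6:50566598-50566655, minus strand: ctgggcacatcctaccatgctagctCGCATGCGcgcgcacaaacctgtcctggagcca
Atp5g2, chr15:102671056-102671113, minus strand: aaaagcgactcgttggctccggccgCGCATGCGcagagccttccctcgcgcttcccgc
Atp5j, chr16:84835091-84835148, minus strand: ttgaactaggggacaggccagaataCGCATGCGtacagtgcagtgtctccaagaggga
Atp5k, chr5:108434416-108434473, minus strand: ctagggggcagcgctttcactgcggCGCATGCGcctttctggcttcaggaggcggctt
Atp5l, chr9:44920951-44920992, minus strand: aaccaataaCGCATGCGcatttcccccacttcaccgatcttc
Cox6a1, chr5:115349087-115349144, minus strand: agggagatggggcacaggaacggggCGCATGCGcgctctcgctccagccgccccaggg

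The core lay 54 to 61 bases before the start in Cycs, 34 to 41 in Atp5g2 and 42 to 49 in Atp5k, and farther out in Atp5j, Cox6a1 and Atp5l, at 140 to 147, 154 to 161 and 234 to 241. Of the 8 genes with the core 6 were higher in Moderate IOP than in Mild IOP, with a median log2 fold-change of 0.91, and of the 30 without it 20 were higher, with a median of 0.73. The ETS core CCGGAAG was found in 12 of the 38 genes (31.6%) and in 9.93% of all genes with a promoter. Of these 12, 11 were higher in Moderate IOP, with a median of 0.91, against 15 of the 26 without it, with a median of 0.67. The 12 were under 1000 nt except Sdhb and Sdhd. CCAAT was found in 22 of the 38 (57.9%) and in 41.1% of all genes with a promoter. Of these 22, 15 were higher, with a median of 0.82, against 11 of the 16 without it, with a median of 0.67. Genes with a match for one motif could hold another, as Atp5j, Atp5k, Atp5l, Cox6a1 and Uqcr11 held both the NRF1 and the ETS core. The genes without the NRF1 core and those without the ETS core both held the low tissue isoforms Cox6b2, Cox7a1, Cox7b2 and Cox8b. They also held Atp5s and Atp5sl, and none of these was called. Whether a motif goes with the change apart from level and length was not tested. These are matches of letters, and binding was not measured.

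In complex II, which takes electrons from succinate, the catalytic subunit and its partners moved in opposite directions between the IOP groups. Sdha, the flavoprotein with the succinate binding site (mm10, chr13:74322255-74350240), was at 304, 298 and 251 FPKM in the Control replicates, 303, 319 and 303 in Mild IOP and 227, 249 and 240.0 in Moderate IOP. It was lower in Moderate IOP than in Mild IOP (log2 fold-change −0.37 ± 0.11 (SE), FDR = 0.0766), with no overlap. The Moderate IOP replicates also lay below the Control replicates, where the difference of −0.25 ± 0.11 (SE), FDR = 0.318 did not pass. The call against Mild IOP was made in 2 of 9 cases when a library was left out, the fewest among the 32 genes called between the IOP groups, and its FDR rose as high as 0.187.

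Sdhc, a membrane anchor (chr1:171129157-171150603), was at 76.6, 78.3 and 81.9 FPKM in Control, 68.5, 66.3 and 83.2 in Mild IOP and 125, 117 and 110.4 in Moderate IOP. All Moderate IOP replicates lay above all 6 other libraries. Sdhc rose 1.62-fold against Mild IOP (0.69 ± 0.12 (SE), FDR = 0.0115) and 1.49-fold against Control (0.57 ± 0.12 (SE), FDR = 0.0644), although the latter was called in 3 of 9 cases when a library was left out, with a highest FDR of 0.202.

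Sdhb carries the iron-sulfur clusters and was at 249, 292 and 236 FPKM in Control, 198, 133 and 206 in Mild IOP and 298, 289.5 and 284 in Moderate IOP. The other anchor, Sdhd, was at 110.1, 85.1 and 121 FPKM in Control, 88.9, 74.5 and 88.8 in Mild IOP and 129, 131 and 132 in Moderate IOP. In both genes Mild IOP and Moderate IOP did not overlap. Sdhb rose 1.62-fold between them (FDR = 0.028) and Sdhd 1.55-fold (FDR = 0.0286, or 0.105 without Mild IOP replicate 2).

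The FPKM of Sdha divided by the mean of Sdhb, Sdhc and Sdhd was 2.10, 1.96 and 1.72 in Control, 2.56, 3.49 and 2.41 in Mild IOP and 1.23, 1.39 and 1.37 in Moderate IOP. This ratio of levels per length was highest in the 3 Mild IOP libraries and lowest in the 3 Moderate IOP libraries, with no overlap of any pair of groups. The summed FPKM of complex II differed least among the complexes between Mild IOP and each other group, though complex III lay closer to Control in Moderate IOP (1.05 times Control against 1.07 times), with 728 ± 33.0 (SD, n = 3) for Control, 644 ± 45.5 for Mild IOP and 778 ± 10.8 for Moderate IOP.

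In complex III, which passes electrons from ubiquinol to cytochrome c, 5 of 9 genes were higher in Moderate IOP than in Mild IOP and 0 were lower, and 0 were called against Control in either IOP group. Cytochrome c1, encoded by Cyc1, is one of the electron carrying subunits and was at 366, 319 and 332 FPKM in Control, 314, 263 and 316 in Mild IOP and 280.3, 304 and 304 in Moderate IOP. Each IOP group lay below the lowest Control replicate, but neither difference passed (FDR = 0.64 and 0.444), and the difference between the IOP groups was −0.01 ± 0.11 (SE), FDR = 0.984. The core proteins Uqcrc1 and Uqcrc2, the largest subunits, differed by 0.11 and 0.12 (FDR = 0.781 and 0.62), with overlapping replicates. Uqcrfs1, the Rieske iron-sulfur protein, was 1.47-fold higher in Moderate IOP than in Mild IOP (FDR = 0.0544), with the FDR reaching 0.189 when Mild IOP replicate 1 or 2 or Moderate IOP replicate 1 or 2 was left out.

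The small subunits without redox centers made up the rest of the calls. Uqcrb, which borders the ubiquinone site, was at 945, 1094 and 1354 FPKM in Control, 753, 553 and 915 in Mild IOP and 1374, 1532 and 1292 in Moderate IOP. Uqcr10, a single-span membrane subunit, was at 823, 881 and 819 FPKM in Control, 531, 417 and 702 in Mild IOP and 950.5, 984 and 914 in Moderate IOP. In both genes Mild IOP lay below every other library, and Moderate IOP was 1.89-fold higher for Uqcrb (FDR = 0.017) and 1.73-fold higher for Uqcr10 (FDR = 0.0171).

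Uqcrh, the hinge protein at the docking site of cytochrome c, was at 608, 797 and 639.9 FPKM in Control, 394, 233 and 421 in Mild IOP and 577, 721 and 618 in Moderate IOP. Here Moderate IOP overlapped Control, and Mild IOP was lower than both groups. The rise against Mild IOP was 0.91 ± 0.21 (SE), FDR = 0.0294, or FDR = 0.103 without Moderate IOP replicate 2, while the difference of Mild IOP from Control was −1.0003 ± 0.21 (SE), FDR = 0.106. Uqcrq, another accessory subunit, was at 709.9, 764 and 536 FPKM in Control, 430.5, 342 and 579.6 in Mild IOP and 715, 757 and 704 in Moderate IOP, with an FDR of 0.0478 between the IOP groups that reached 0.144 without Mild IOP replicate 1 or 2 or Moderate IOP replicate 1 or 2. Uqcr11 differed by 0.57 and did not pass (FDR = 0.225). The summed FPKM of complex III was 5174 ± 246 (SD, n = 3) in Control, against 3477 ± 802 for Mild IOP and 5439 ± 270.4 for Moderate IOP.

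Cycs encodes somatic cytochrome c, which carries electrons to complex IV and, when released from mitochondria, takes part in apoptosis. It was at 94.6, 90.5 and 120.1 FPKM in Control, 74.4, 74.5 and 86.8 in Mild IOP and 130.2, 140.0 and 151 in Moderate IOP (mm10, chr6:50562563-50566474). The 3 groups did not overlap, in the order Mild IOP, Control, Moderate IOP. Cycs rose 1.79-fold from Mild IOP to Moderate IOP (0.83 ± 0.14 (SE), FDR = 0.00924), and this call was made whichever library was left out. Against Control the log2 fold-change was −0.36 in Mild IOP (FDR = 0.376) and 0.47 in Moderate IOP (FDR = 0.151), and neither passed.

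**Figure D3:**
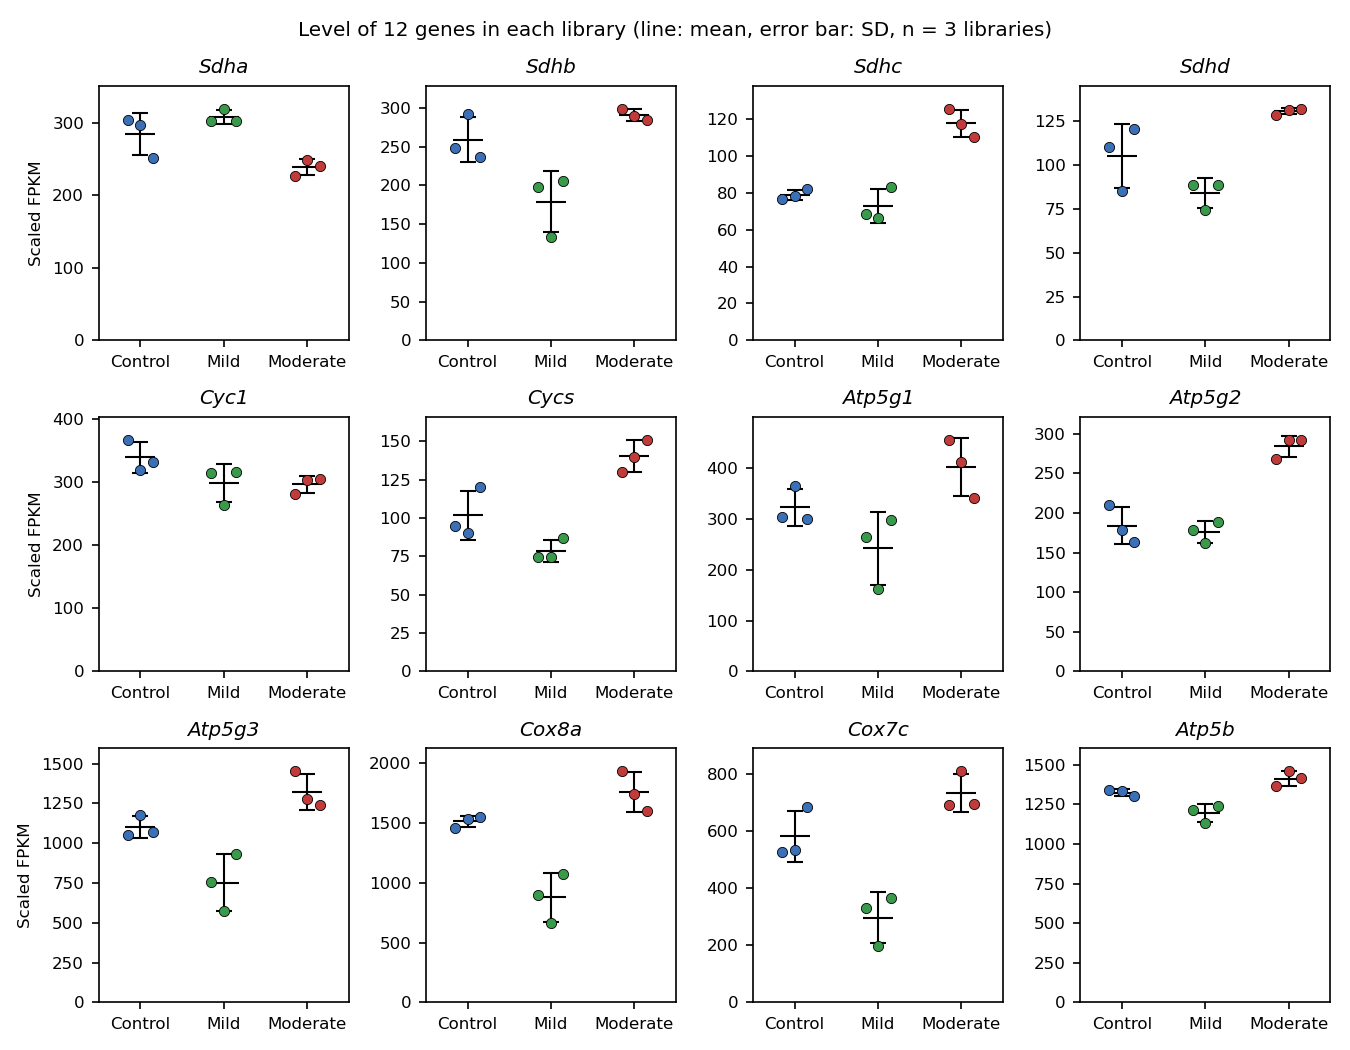
Scaled FPKM of 12 genes in each library, with points colored by group and lines for the mean and SD of 3 replicates. Sdha falls and Sdhb, Sdhc and Sdhd rise between Mild IOP and Moderate IOP, Cyc1 and Atp5b lie close together in the 3 groups, and Cycs, the Atp5g genes, Cox8a and Cox7c are higher in Moderate IOP than in Mild IOP.

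Complex IV, cytochrome c oxidase, had the largest median difference between the IOP groups among the complexes with several genes. Of its 17 tested genes 11 were higher in Moderate IOP than in Mild IOP, with a median log2 fold-change of 0.89 over the 17, and the other 6 were tissue isoforms at low levels. These nuclear genes encode the structural subunits that surround the catalytic core. Cox8a, one of the smallest subunits, was at 1460, 1532 and 1549 FPKM in Control, 900.1, 662 and 1069 in Mild IOP and 1932, 1743 and 1599 in Moderate IOP. Its groups were fully separate, with a fall in Mild IOP to 0.58 times Control (−0.81 ± 0.16 (SE), FDR = 0.087) and a level 2.00 times that of Mild IOP in Moderate IOP (FDR = 0.00781).

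Cox7b, which is X-linked, was at 221, 239.8 and 276 FPKM in Control, 165, 139.6 and 167 in Mild IOP and 329.8, 339 and 318 in Moderate IOP. It fell to 0.639 times Control in Mild IOP (FDR = 0.0743) and had the smallest FDR of all 48 genes between the IOP groups (1.07 ± 0.12 (SE), FDR = 0.00361). The difference of Moderate IOP from Control, 0.42 ± 0.12 (SE), FDR = 0.139, did not pass, although the groups were separate. Cox7c was at 527, 532 and 684 FPKM in Control, 328, 196 and 365 in Mild IOP and 691, 808 and 694 in Moderate IOP, and its rise between the IOP groups was the largest of the 48 genes, 2.46-fold (1.34 ± 0.21 (SE), FDR = 0.00769). Cox6a1 was at 1014, 1217 and 1132 FPKM in Control, 802, 576 and 892 in Mild IOP and 1516, 1432 and 1492 in Moderate IOP. It was 1.96-fold higher in Moderate IOP than in Mild IOP (FDR = 0.00769), with full separation of the 3 groups.

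The other structural genes were lowest in Mild IOP as well. Cox4i1, the ubiquitous form of the subunit that binds ATP as a regulator, was at 1018, 1155 and 1028 FPKM in Control, 779, 550.1 and 867 in Mild IOP and 1307, 1336 and 1135 in Moderate IOP. Cox6b1, which faces cytochrome c, was at 1046, 1212 and 943 FPKM in Control, 834, 488 and 703 in Mild IOP and 1261, 1197 and 1199 in Moderate IOP. In both genes all Mild IOP replicates were below all others, and Moderate IOP overlapped Control. Between the IOP groups Cox4i1 rose 1.72-fold (FDR = 0.0176) and Cox6b1 1.81-fold (FDR = 0.0176). Cox5a, Cox5b and Cox6c rose 1.83-fold, 1.95-fold and 2.18-fold (FDR = 0.0111, 0.00924 and 0.0103).

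Cox7a2, the ubiquitous form of subunit 7a, was at 377, 459.9 and 523 FPKM in Control, 289.7, 213 and 321 in Mild IOP and 584, 530.3 and 473 in Moderate IOP. Cox7a2l, which helps to join complexes III and IV and of which C57BL/6J mice are known to carry a shortened form, was at 91.9, 111 and 131 FPKM in Control, 87.3, 81.1 and 100.1 in Mild IOP and 152, 134 and 154 in Moderate IOP. Both genes were higher in Moderate IOP than in Mild IOP, 1.93-fold for Cox7a2 (FDR = 0.0118) and 1.64-fold for Cox7a2l (FDR = 0.0209). Moderate IOP overlapped Control for Cox7a2 and lay above it for Cox7a2l, where the difference did not pass (FDR = 0.224).

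The isoforms known from muscle, lung and testis were minor in these cells, and none of them was called in any comparison. Cox4i2, the lung form, was between 1.63 and 13.5 FPKM in the 9 libraries, and Cox4i1 made up 98.8% to 99.8% of the pair. Cox6a2, the heart and muscle form, was between 0.318 and 18.5 FPKM, which left Cox6a1 with 98.8% or more of its pair. Cox8b was listed at 0 in 5 libraries and reached 7.80 FPKM, and Cox8a made up at least 98.8% of the Cox8 sum.

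Cox7a1, another heart and muscle form, was at 29.2, 20.1 and 25.9 FPKM in Control, 3.42, 21.8 and 4.67 in Mild IOP and 4.88, 19.9 and 48.4 in Moderate IOP. Its replicates differed by more than its groups, and its fitted differences from Control, −1.64 ± 0.72 (SE), FDR = 0.468 in Mild IOP and −0.50 ± 0.72 (SE), FDR = 0.785 in Moderate IOP, were the most negative of the 48 genes. Cox6b2, a testis form, was at 14.2, 23.9 and 9.998 FPKM in Control, 22.4, 36.1 and 25.8 in Mild IOP and 39.7, 21.7 and 28.1 in Moderate IOP, and its share of the Cox6b sum was 1.34, 1.93 and 1.05% in Control, 2.62, 6.88 and 3.53% in Mild IOP and 3.05, 1.78 and 2.29% in Moderate IOP, where it overlapped both other groups. The groups overlapped in FPKM for Cox6b2, and it was not called against Control in Mild IOP (FDR = 0.364). Cox7b2, also a testis form, was listed at 0 in the Control replicates, at 0.968, 0 and 3.27 FPKM in Mild IOP and at 1.21, 4.57 and 0 in Moderate IOP. The summed FPKM of complex IV was 8579 ± 533 (SD, n = 3) in Control, against 5432 ± 1206 for Mild IOP and 10600 ± 461 for Moderate IOP.

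**Figure D4:**
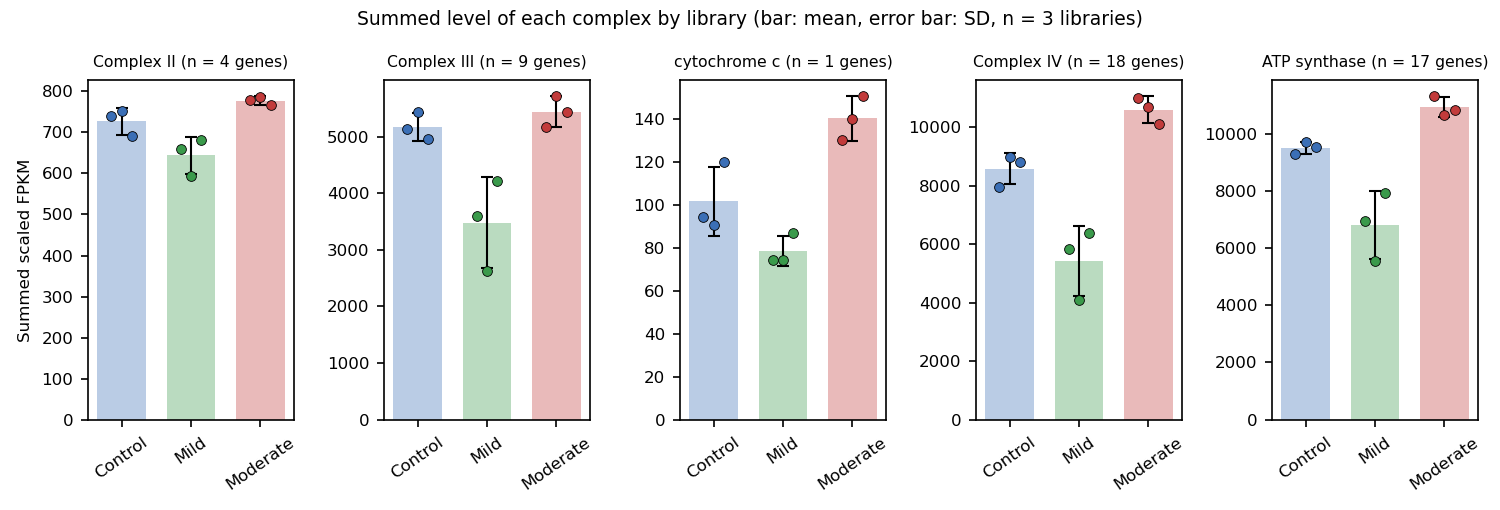
Summed scaled FPKM of the genes of each complex in each library, with bars for the mean and error bars for the SD of 3 replicates and a separate axis from 0 for each complex. Complexes III and IV and ATP synthase are lowest in the 3 Mild IOP libraries, and complex IV has the largest ratio of Moderate IOP to Mild IOP of these, 1.95.

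In ATP synthase 11 of 17 genes were higher in Moderate IOP than in Mild IOP and 0 were lower. The calls covered the ring of c subunits and most of the stalk and membrane subunits, and not the main subunits of the catalytic head. Atp5b, the catalytic beta subunit and the most abundant gene of the enzyme, was at 1339, 1334 and 1301 FPKM in Control, 1217, 1135 and 1242 in Mild IOP and 1363, 1460 and 1416 in Moderate IOP. The 3 groups did not overlap, yet the steps were small, with 0.24 ± 0.09 (SE), FDR = 0.173 between the IOP groups. The alpha subunit gene, Atp5a1, differed by 0.30 ± 0.12 (SE), FDR = 0.168. Of the central stalk genes, Atp5c1 and Atp5e rose 1.36-fold and 1.63-fold (FDR = 0.0614 and 0.0642) and Atp5d did not pass (FDR = 0.13), with the FDR of Atp5c1 reaching 0.175 and that of Atp5e 0.21 when Mild IOP replicate 1 or 2 or Moderate IOP replicate 1 or 2 was left out, or, for Atp5e, Moderate IOP replicate 3.

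The c ring is encoded by 3 genes, Atp5g1, Atp5g2 and Atp5g3, which differ in their import sequences and give the same mature protein. Atp5g2 (chr15:102662868-102671047) was at 209.8, 178 and 164 FPKM in Control, 178, 162 and 189 in Mild IOP and 268, 292 and 292 in Moderate IOP. Mild IOP overlapped Control, and all Moderate IOP replicates lay above both. Atp5g2 was 1.54-fold higher in Moderate IOP than in Control (0.63 ± 0.12 (SE), FDR = 0.041) and 1.61-fold higher than in Mild IOP (FDR = 0.0113). The call against Control was made in 6 of 9 cases when a library was left out, and its FDR reached 0.133 in the cases without Control replicate 2 or Moderate IOP replicate 2 or 3.

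Atp5g3 was at 1051, 1179 and 1073 FPKM in Control, 756, 574 and 930.4 in Mild IOP and 1453, 1275 and 1241 in Moderate IOP, and Atp5g1 was at 303, 364 and 299.8 FPKM in Control, 264.6, 162 and 298 in Mild IOP and 454, 411 and 340.2 in Moderate IOP. Both were higher in Moderate IOP than in Mild IOP, 1.76-fold (FDR = 0.0154) and 1.66-fold (FDR = 0.0542), the latter with an FDR of up to 0.15 without Mild IOP replicate 2 or Moderate IOP replicate 1 or 2. Atp5g3 supplied most of the summed FPKM of the c subunits, 67.2, 68.5 and 69.8% in Control and 63.0, 63.9 and 65.6% in Mild IOP. The share of Atp5g2 was 13.4, 10.4 and 10.7% in Control, 14.9, 18 and 13.3% in Mild IOP and 12.3, 14.8 and 15.6% in Moderate IOP, so it was lower in 2 of the 3 Control replicates than in any IOP library.

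The peripheral stalk holds the catalytic head against rotation. Atp5j, its F6 subunit, was at 638, 634 and 747 FPKM in Control, 429.7, 291 and 449.8 in Mild IOP and 749, 809.8 and 826 in Moderate IOP. The groups were separate in full order, and Atp5j fell in Mild IOP against Control (−0.81 ± 0.16 (SE), FDR = 0.0883) and was 2.04-fold higher in Moderate IOP than in Mild IOP (FDR = 0.0072). Atp5h, the d subunit, was at 807, 935 and 845 FPKM in Control, 597, 491 and 713 in Mild IOP and 1191, 1008 and 1140 in Moderate IOP and rose 1.85-fold between the IOP groups (FDR = 0.008). Atp5o also passed (FDR = 0.0526, up to 0.135 without Mild IOP replicate 2 or Moderate IOP replicate 2 or 3), and Atp5f1, the b subunit, did not (FDR = 0.136).

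Atp5k, the e subunit of the membrane part, which helps ATP synthase form dimers, was at 1163, 995 and 1021 FPKM in Control, 389.7, 365 and 675 in Mild IOP and 947, 911 and 1185 in Moderate IOP. All Mild IOP replicates were low, and Moderate IOP overlapped Control. It had the deepest called fall in Mild IOP, to 0.449 times Control (−1.21 ± 0.21 (SE), FDR = 0.0616), and was 2.13-fold higher in Moderate IOP than in Mild IOP (FDR = 0.0129). Atp5j2, the f subunit, was at 710.4, 637 and 571 FPKM in Control, 404, 302 and 446 in Mild IOP and 843, 725 and 658 in Moderate IOP and rose 1.93-fold between the IOP groups (FDR = 0.00937), and Atp5l, the g subunit, rose 1.97-fold (FDR = 0.0283). Atp5s and Atp5sl, which are no core subunits, differed by 0.18 and 0.19 and did not pass. The summed FPKM of ATP synthase was 9508 ± 216 (SD, n = 3) in Control, against 6804 ± 1195 for Mild IOP and 10940 ± 337 for Moderate IOP.

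Between complexes, the median log2 fold-change from Mild IOP to Moderate IOP was 0.66 in complex II, 0.57 in complex III, 0.89 in complex IV and 0.69 in ATP synthase, with 0.83 for Cycs. From Control to Mild IOP the medians were −0.22, −0.59, −0.59 and −0.46 in the same order of complexes, and −0.36 for Cycs. From Control to Moderate IOP they were 0.25, −0.06, 0.39 and 0.21, and 0.47 for Cycs. In complex III, the median of Moderate IOP was thus near Control while that of Mild IOP was lower, whereas in complex IV the medians of the IOP groups lay on opposite sides of Control. Of the 17 tested complex IV genes, however, 0 were called in Moderate IOP against Control and 2 were lower in Mild IOP. Of all genes tested, 0.951% were called higher in Moderate IOP and 0.391% lower in Mild IOP. The summed FPKM of all 49 genes was 0.682 times Control in Mild IOP and 1.16 times Control in Moderate IOP. Differences between complexes were not tested.

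Transcript length moved with these differences. The 48 tested genes had a median transcript length of 765 nt, against 2797 nt for all genes tested with a known length, and 29 of the 48 were under 1000 nt. Among all 1102 genes of that length, 393 (35.7%) were higher in Moderate IOP than in Mild IOP, with a median log2 fold-change of 0.62, whereas 21 of the 29 short respiratory genes (72.4%) were, with a median of 0.89. In narrower classes the medians were 0.77 and 0.93 from 400 to 600 nt and 0.71 and 0.88 from 600 to 800 nt, with 12 and 10 of the 29. They were 0.29 and 1.14 below 400 nt and 0.54 and 0.80 from 800 to 1000 nt. These sets were not matched for level, which bears on how many genes are called. In Mild IOP against Control the medians of the same sets were −0.43 and −0.64, with 36 of 1102 (3.27%) and 3 of 29 called lower. In Moderate IOP against Control they were 0.21 and 0.24, with 26 (2.36%) and 1 called higher.

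Across the 48 genes, Pearson's r between the log2 fold-change and log2 transcript length was −0.41 between the IOP groups, 0.26 for Mild IOP against Control and −0.12 for Moderate IOP against Control. Across all 12945 genes tested with a length, r was −0.38, 0.30 and −0.15 in the same order, and genes are not independent replicates. Among the 39 of the 48 genes with a mean of at least 100 FPKM, which leaves out the low tissue isoforms, r was −0.68, 0.74 and −0.13. The catalytic subunits Sdha, Cyc1, Uqcrfs1 and Atp5b, at 2900, 1520, 1363 and 1916 nt, belonged to the longer genes. So did Atp5a1, the alpha subunit, at 2471 nt, while Atp5k, Cox7c and Cox8a had 371, 540 and 550 nt. Of these catalytic subunits, Uqcrfs1 was called higher and Sdha lower in Moderate IOP than in Mild IOP.

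**Figure D5:**
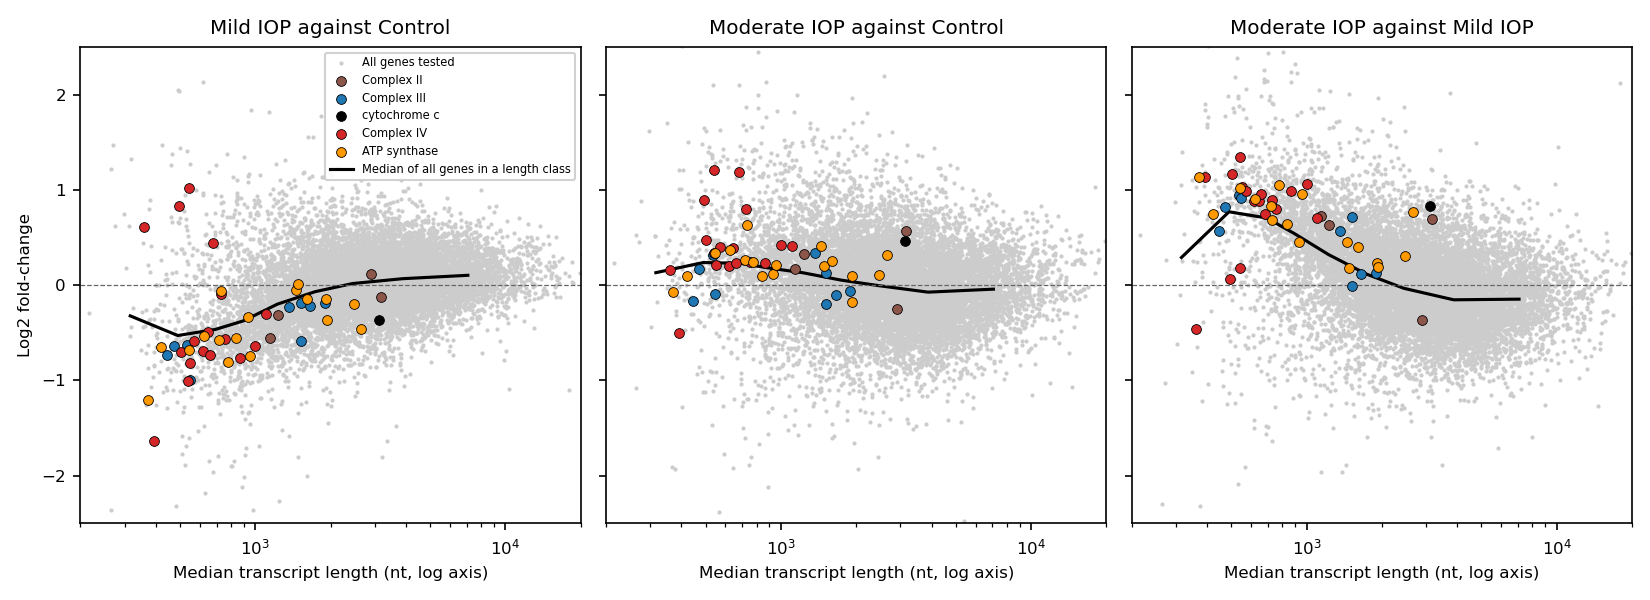
Log2 fold-change of each gene against its median transcript length in nt on a log axis for the 3 comparisons, with all genes tested in grey, respiratory genes colored by complex and a black line for the median of all genes in each length class. Short genes lie below 0 in Mild IOP and above 0 in Moderate IOP against Mild IOP, and Sdhc and Cycs, both listed at over 3000 nt, lie above the line on the right.

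When the trend of each library with transcript length was removed before the fit, the median log2 fold-change between the IOP groups was 0.20, and 8 of the 32 calls were left. Of all genes tested, 2.02% were then called higher and 1.3% lower in this comparison. The 8 genes left, each higher in Moderate IOP, were Atp5g1, Atp5j, Atp5j2, Cox5b, Cox7b, Cox7c, Cycs and Sdhc. The 4 calls in Mild IOP against Control were lost, where 0.13% of all genes tested were called lower, and of the 2 in Moderate IOP Sdhc was left, where 1.09% were called higher. The called genes Atp5e and Uqcr10 changed sign between the IOP groups, to −0.14 and −0.0219. Sdhc and Cycs, with 3171 and 3123 nt, have the longest annotated medians of the 48 genes, in a class from 3000 to 5000 nt where the median of 3786 genes between the IOP groups was −0.15. In Control replicate 1, the FPKM intervals gave 544 fragments for Sdhc at 76.6 FPKM and 2110 for Cycs at 94.6. They gave 933 for Atp5g1, listed at 2655.5 nt, at 303 FPKM, and 3470 for Atp5g3, listed at 718.5 nt, at 1051. Per FPKM, Sdhc thus had fewer fragments than Cycs at nearly the same listed length, and Atp5g1 about as many as Atp5g3 at a far greater one. The calls left for Sdhc and Atp5g1 therefore depend on listed lengths that may not hold. Whether the listed lengths are those of the transcripts present was not tested. The part of RNA length, or of anything that goes with it, in the differences was not tested.

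Other genes of the pathway were described from lists written by symbol. The genes named from each list are those with the smallest p between the IOP groups, so they do not stand for the list. Beside their counts stand 7.03% of all genes tested, and 35.7% of those under 1000 nt, called higher in Moderate IOP than in Mild IOP. Of 45 complex I subunits, the entry point for electrons from NADH, 34 were higher in Moderate IOP than in Mild IOP with a median log2 fold-change of 0.75, as in Ndufa12, which rose by 1.07 (FDR = 0.00395), Ndufa6 by 0.95 and Ndufb3 by 1.23. Assembly factors of complexes II to IV and ATP synthase rose in 7 of 27 cases with a median of 0.23, among them Uqcc2 by 0.78, Coa6 by 1.15 and Cox19 by 0.62. Of the carriers and partners 4 of 11 rose with a median of 0.32, including Slc25a4, the adenine nucleotide carrier, by 0.47, Higd2a by 0.83 and Usmg5, a small ATP synthase subunit, by 1.04.

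Transcriptional regulators of respiratory genes were described next. Of 11 regulators, 0 were called by limma in any of the 3 comparisons, beside 7.03% higher and 3.12% lower of all genes tested between the IOP groups, so that a count of 0 does not set them apart. Of the 11, 1 had an unadjusted p below 0.05 between the IOP groups, and the median there was −0.05, against −0.02 over all genes tested. Ppargc1a, the coactivator PGC-1α, was at 7.02, 5.75 and 4.92 FPKM in Control, 7.97, 7.94 and 6.49 in Mild IOP and 6.12, 5.37 and 3.27 in Moderate IOP. Its Control replicates overlapped those of both IOP groups, and its difference of −0.54 ± 0.24 (SE), FDR = 0.219 between the IOP groups did not pass. Ppargc1a is named for having the smallest p of the 11 there, of which 3 had a positive and 8 a negative difference. Polrmt, the mitochondrial RNA polymerase, and Gabpa, a subunit of the ETS factor NRF2, differed by −0.43 and −0.45 (FDR = 0.341 and 0.382).

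Ribosomal protein genes, which also have short transcripts, were described as a comparison outside respiration. Of 84 cytosolic ones 71 were higher in Moderate IOP than in Mild IOP with a median of 0.94, among them Rpl32, Rplp2 and Rpl17 with 1.22, 1.12 and 0.99. Of 77 mitochondrial ones 29 were higher with a median of 0.56, among them Mrps12, Mrpl20 and Mrpl14 with 0.92, 0.73 and 1.24. The shares called higher were 7.03% of all genes tested and 35.7% of those under 1000 nt. In these 6 lists 0 genes were lower in this comparison, beside 3.12% of all genes tested and 0.635% of those under 1000 nt. A count of 0 is thus near the share of short genes. The median of the respiratory genes, 0.75, lay between those of the ribosomal lists.

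Cell type markers also moved between the groups. The 12 RGC markers summed to between 1595 and 1715 FPKM in Control, 1197 and 1479 in Mild IOP and 2523 and 2720 in Moderate IOP, in the same order of groups as the respiratory genes. Of these 12, 7 were higher in Moderate IOP than in Mild IOP, beside 7.03% of all genes tested. Against Control 3 were higher in Moderate IOP, beside 0.951%. Between Mild IOP and Control 0 of the 12 were called, with a median log2 fold-change of −0.18. The low Mild IOP sum rested largely on Sncg, the highest of the 12, with a mean of 641 FPKM against 911 for Control. Sncg had a mean of 1389 FPKM in Moderate IOP, so the high sum there rested in large part on it as well. Nefl and Slc17a6 were not lower in Mild IOP, with log2 fold-changes of 0.13 and 0.03 from Control. From Control to Moderate IOP the median of the 12 was 0.55, while Pou4f2 and Pou4f3 were not higher, with −0.10 and −0.15. The 9 rod markers summed to between 583 and 612 FPKM in Control, 375 and 426 in Mild IOP and 401 and 413 in Moderate IOP, and the 7 amacrine markers to between 766 and 814, 842 and 901, and 548 and 597. The amacrine sum rested largely on Gad1, with means of 549, 587 and 421 FPKM in the same order. From Control to Moderate IOP the amacrine markers went both ways. Gad1, Gad2 and Slc6a9 had log2 fold-changes of −0.38, −0.70 and −1.48, and Slc32a1, Tfap2a and Tfap2b of 0.29, 0.49 and 0.06. The 7 lens markers summed to between 233 and 307 FPKM in Control and to under 3 in every IOP library. Cone, bipolar, Müller glia and astrocyte, microglial, endothelial and muscle lists summed to under 100 FPKM in every library, with Vsx1 of bipolar cells, Cldn5 of endothelium and Tnnt3 and Ckm of muscle listed at 0 in all 9. The part of the cell makeup in the differences of the respiratory genes was not tested.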

How the data were processed

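RNA sequencing of RGC pools was analysed in 9 libraries, 3 technical replicates each of Control, Mild IOP and Moderate IOP, with groups taken from the sample labels. The authors aligned reads to mm10, ran cufflinks on each library and deposited FPKM for each gene locus. The aligner is bowtie2 in the published methods and TopHat2 in the submitters' processing notes. FPKM is normalized for length and depth, so a small number of abundant transcripts lowers the FPKM of all others. FPKM of loci with the same symbol was summed, and libraries were divided by median-of-ratios factors. As FPKM is not a count, log2(scaled FPKM + 1) was fitted with limma (version 3.58.1, R 4.3.3). The fit took 1 mean per group, used all 9 libraries for the variance and applied trended empirical Bayes moderation to 13043 genes with a mean of at least 0.5 and no failed estimate. The Benjamini-Hochberg adjustment was applied per comparison (FDR), and genes with an FDR below 0.1 were called. Because replicates are splits of 1 pool, p-values cover technical spread.

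Depth was derived from the confidence interval of each FPKM over genes of at least 2000 nt and 100 fragments, and the intervals cover counting error at most. Transcript length is the median over GENCODE M21 transcripts paired with RefSeq, known for 98.5% of symbols and all 49 genes. This median is not weighted by the level of each transcript, so it can differ from the length of the transcripts present. How reads shared with the pseudogenes of these genes were assigned is not given in the sources used here. The genes, and the lists of other genes, were chosen with earlier results of these data known. Genes named with values in every library were the Sdh genes, Cyc1 and Cycs, the highest gene of each complex, up to 4 called genes per complex with the smallest p between the IOP groups, the 3 genes with the smallest p in the other comparisons, the largest rise and fall in each, and all isoforms of Cox4i, Cox6a, Cox6b, Cox7a, Cox7b, Cox8 and Atp5g. From each list of other pathway and ribosomal genes, the 3 with the smallest p between the IOP groups were named. In simulated data for Moderate IOP against Control with 13043 genes, 165 of 200 changed genes were recovered (82.5%) with 20 false calls. The simulated log2 fold-changes were 1 or 1.5 in either direction and lay only in genes above a set level. Noise was independent between genes and held no trend with transcript length. The simulation therefore does not cover the smaller differences from Control seen here, or calls that follow length. Alternatives were tried for scaling, pseudocount, filters, failed estimates, the variance, a replicate block, the length trend, the choice of locus, a fold-change criterion of 1.5 and the leaving out of each library. Figures were made in Python 3.11.15 with matplotlib 3.10.9.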

Additional observations from a re-analysis of the deposited data

How the results depend on the processing

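Between Mild IOP and Moderate IOP, 24 to 34 genes were called in either direction under the alternatives run other than the removal of the length trend, against 32 as reported, and at most 1 of them, Sdha, was lower in Moderate IOP. The removal of the length trend left 8 with a median log2 fold-change of 0.20. Leaving out 1 library at a time gave 24 to 33 called genes with medians from 0.63 to 0.85. The calls against Control were few and less stable. In Mild IOP the 4 calls became 1 without scaling, 0 without a filter on low values, 8 with a mean of at least 5 FPKM, 0 with the variance of the compared groups alone, 0 with the length trend removed (median −0.15), and 0 to 19 without 1 library, with medians from −0.64 to −0.34, the latter without Mild IOP replicate 2. In Moderate IOP the 2 calls became 1 with the length trend removed (median 0.0393), 1 with a fold-change of at least 1.5 as well, and 0 to 4 without 1 library, with medians from 0.20 to 0.31. The cause of these changes was not tested. The summed FPKM of complex II had a log2 ratio of Moderate IOP to Mild IOP of 0.19 without scaling against 0.27 with it.

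With the replicate number as a block, 1 gene was called in Mild IOP against Control, 0 in Moderate IOP against Control and 30 between the IOP groups. The numbers do not pair the libraries, as deviations of libraries with the same number had a mean correlation of 0.01 and those with different numbers −0.01.

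Single genes changed sign with the length trend removed, with log2 fold-changes of 0.0841 (Atp5c1), 0.35 (Atp5g2) and 0.32 (Cox4i2) in Mild IOP against Control, −0.0723 (Atp5d), −0.21 (Atp5e), −0.11 (Atp5o), −0.0568 (Cox6b1), −0.0174 (Cox7a2), −0.0604 (Cox8a), −0.17 (Cox8b) and −0.12 (Uqcr10) in Moderate IOP against Control, and −0.0569 (Atp5d), −0.14 (Atp5e), −0.0431 (Atp5s), −0.75 (Cox6b2), −0.60 (Cox7b2), −0.0219 (Uqcr10), −0.29 (Uqcr11) and −0.0484 (Uqcrc1) between the IOP groups. Of these, Atp5e and Uqcr10 between the IOP groups were called genes. Without scaling, Cox6b2 was at −0.0144 between the IOP groups. Leaving out 1 library changed the sign of uncalled genes, with ranges in Mild IOP against Control of −0.18 to 0.0607 (Atp5c1), −0.28 to 0.009 (Atp5f1), −0.14 to 0.0423 (Atp5g2), −0.17 to 0.16 (Atp5s), −0.61 to 0.62 (Cox4i2), −0.28 to 0.84 (Cox6a2) and −0.20 to 1.5009 (Cox8b). The ranges in Moderate IOP against Control were −0.0082 to 0.18 (Atp5a1), −0.0789 to 0.21 (Atp5e), −0.19 to 0.0035 (Atp5k), −0.0075 to 0.16 (Atp5o), −1.22 to 0.32 (Cox7a1), −0.89 to 1.05 (Cox8b), −0.33 to 0.0184 (Uqcr11), −0.34 to 0.0146 (Uqcrc1), −0.13 to 0.0366 (Uqcrc2), −0.18 to 0.0278 (Uqcrh) and −0.0217 to 0.23 (Uqcrq), and those between the IOP groups −0.15 to 0.27 (Cox6b2), −0.45 to 0.79 (Cox7b2), −1.5009 to 0.36 (Cox8b) and −0.0919 to 0.0388 (Cyc1). Depth limits the tissue isoforms of complex IV, which rest on few fragments.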
